A study of Homo sapiens with 9 samples.

Results

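The genes described here are those of the 4 classical axon guidance systems and their receptors. They were chosen by symbol, as the class 3 to class 7 semaphorins, plexins, neuropilins, ephrins, Eph receptors, SLITs, ROBO receptors, netrins with the netrin-Gs, and UNC5 receptors. They came to 68 genes of the 18417 measured, on 71 of the array's 33297 probe sets. All 68 Entrez numbers were found under the same symbol in RefSeq. EPHB2 and SEMA4C had no probe set with a single symbol and were not analysed here.

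Affymetrix whole-transcript arrays were used to profile total RNA of IMR90 ER:RAS cells. IMR90, spelled IRM90 in the labels, is a fibroblast line from human lung. ER:RAS joins a RAS oncogene to the ligand-binding domain of the oestrogen receptor, which makes RAS active once 4-hydroxytamoxifen (4OHT) is added. There were 9 arrays in 3 groups. The shARID1B+4OHT cells carried a short hairpin RNA against ARID1B, which encodes a DNA-binding subunit of SWI/SNF remodellers, and received 100 nM 4OHT. The vector+4OHT cells carried an empty vector and received the same 4OHT, and are the senescent cells of the design. The vector-4OHT cells carried the empty vector without 4OHT and are the non-senescent cells. All groups express the ER:RAS fusion, were grown for 7 days and are labelled day 6. There was no group with a control hairpin and none given 4OHT without ER:RAS, so the effects of RAS and of 4OHT itself cannot be told apart, nor can those of ARID1B loss and of a hairpin as such. No group carried the ARID1B hairpin without 4OHT. A hairpin effect present without 4OHT therefore cannot be told apart from one on the response to 4OHT. The labels do not say which hairpin was used. A figure legend of the study describes the replicates as biological, while the labels do not say that they were separate cultures, and p-values measure the spread between these samples.

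Guidance cues were first described as signals that attract or repel growing axons, and the same proteins act on the adhesion, movement and contraction of fibroblasts, endothelial cells and tumour cells. Semaphorins signal through plexins, and most secreted class 3 semaphorins need a neuropilin as coreceptor. Ephrins are membrane-bound ligands of the Eph receptor tyrosine kinases and signal in both directions across a cell contact. SLITs bind ROBO receptors, and netrins bind DCC, neogenin and the UNC5 receptors.

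The values are log2 expression after RMA, which corrects for background, equalises the distributions of the arrays and sums up the probes of a set. Array medians lay between 6.70 and 6.79, and pairs of arrays within a group had correlations of 0.9955 to 0.9972 over all probe sets. A gene was called changed at an adjusted p under 0.05 in limma. All 9 arrays were in 1 fit, with Benjamini-Hochberg adjustment over 18417 genes. Adjusted p-values below come from that fit, except those given for a second probe set, a left-out array or another setting. Detection p-values were not used here. A group mean under 6.75, the median of all values, is described as dim, since it was not shown to be above background. ARID1B itself read 8.07, 7.96 and 8.13 in shARID1B+4OHT cells, 8.63, 8.96 and 8.77 in vector+4OHT cells, and 8.93, 8.85 and 8.94 in vector-4OHT cells. It was lower with the hairpin than with the vector under 4OHT (log2 fold change -0.73, adjusted p = 0.000179). The fibroblast markers were all above 6.75 in every group, and the fibroblast list averaged 10.77 to 10.82 in shARID1B+4OHT, 10.66 to 10.74 in vector+4OHT and 11.09 to 11.20 in vector-4OHT arrays. In RNA from whole cultures, fewer cells of a type and less RNA per cell cannot be told apart.

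Promoter sequences are shown for the 6 guidance genes that were called in opposite directions by 4OHT and by the hairpin. SEMA3A, called higher in both comparisons, had no promoter window. Both comparisons use the vector+4OHT arrays, so a chance value there also moves them in opposite directions. The share of all genes with such opposite calls is not given here. Of the 6 genes, SEMA7A, EPHA4, ROBO4 and SEMA3C were higher in vector+4OHT than in vector-4OHT cells. They were lower in shARID1B+4OHT than in vector+4OHT cells. The other two, NTN4 and SEMA3D, had the opposite pair of calls. Each sequence is the 250 bases before the start site that lies farthest upstream, 5′ to 3′ on the gene's own strand, from RefSeq (GRCh38.p14). Capitals mark the GC box GGGCGG, the core letters of an Sp1-type site, on either strand. All 6 genes lie on the minus strand. SEMA7A is at chr15:74433959-74434208, EPHA4 at chr2:221574203-221574452, ROBO4 at chr11:124897866-124898115, SEMA3C at chr7:80922390-80922639, NTN4 at chr12:95791156-95791405 and SEMA3D at chr7:85187057-85187306.
SEMA7A: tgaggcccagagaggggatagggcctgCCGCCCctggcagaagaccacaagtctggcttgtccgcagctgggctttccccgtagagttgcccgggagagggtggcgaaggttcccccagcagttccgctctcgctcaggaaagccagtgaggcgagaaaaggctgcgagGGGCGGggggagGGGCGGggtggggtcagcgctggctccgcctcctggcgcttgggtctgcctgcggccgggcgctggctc
EPHA4: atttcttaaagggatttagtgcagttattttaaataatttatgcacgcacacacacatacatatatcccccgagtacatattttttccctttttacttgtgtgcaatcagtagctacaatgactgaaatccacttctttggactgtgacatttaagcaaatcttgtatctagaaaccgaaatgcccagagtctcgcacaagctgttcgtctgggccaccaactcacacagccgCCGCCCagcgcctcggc
ROBO4: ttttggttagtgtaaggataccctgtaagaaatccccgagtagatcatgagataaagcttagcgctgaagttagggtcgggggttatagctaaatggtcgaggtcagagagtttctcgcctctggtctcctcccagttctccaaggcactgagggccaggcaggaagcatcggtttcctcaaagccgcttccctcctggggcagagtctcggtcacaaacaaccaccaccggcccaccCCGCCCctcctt
SEMA3C: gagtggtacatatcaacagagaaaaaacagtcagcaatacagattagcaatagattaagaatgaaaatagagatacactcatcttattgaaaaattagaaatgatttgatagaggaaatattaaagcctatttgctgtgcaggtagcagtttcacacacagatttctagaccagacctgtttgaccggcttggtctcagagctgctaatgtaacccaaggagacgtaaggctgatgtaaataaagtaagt
NTN4: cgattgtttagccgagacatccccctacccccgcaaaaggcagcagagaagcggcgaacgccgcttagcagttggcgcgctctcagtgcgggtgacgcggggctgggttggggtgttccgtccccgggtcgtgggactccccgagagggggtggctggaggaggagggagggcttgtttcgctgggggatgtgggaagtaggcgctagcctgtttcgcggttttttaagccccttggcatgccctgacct
SEMA3D: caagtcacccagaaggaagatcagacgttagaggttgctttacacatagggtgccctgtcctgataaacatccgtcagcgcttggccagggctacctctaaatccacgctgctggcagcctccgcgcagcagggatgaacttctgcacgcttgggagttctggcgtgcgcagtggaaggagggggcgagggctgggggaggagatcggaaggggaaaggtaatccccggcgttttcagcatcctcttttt
SEMA7A held 3 GC boxes in this window, EPHA4 and ROBO4 held 1 each, and SEMA3C, NTN4 and SEMA3D held none. The GC content was 70% for SEMA7A, 64.4% for NTN4, 57.6% for SEMA3D, 54.8% for ROBO4, 43.2% for EPHA4 and 36.4% for SEMA3C. These values depend on the start site that was taken. SEMA7A, EPHA4, SEMA3C and NTN4 each have a second start site downstream, whose windows held 4 GC boxes in SEMA7A, 5 in EPHA4, 3 in SEMA3C and 4 in NTN4. The GC content of those windows was 77.6% for SEMA7A, 78.0% for EPHA4, 77.6% for SEMA3C and 78.4% for NTN4. ROBO4 and SEMA3D had a single window.

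Promoter windows of this length were found for 57 of the 68 guidance genes, 90 windows in all, because several genes have more than 1 start site. SEMA3A and SEMA6A had none. The GC box was in 70% of the 90 windows, against 54.7% of the 20109 windows of all tested genes. The letters of other motifs were searched on both strands. TGANTCA, an AP-1 site, was in 1.11% of the guidance windows, that of PLXNC1, against 5.31% of those of tested genes. CCGGAAGT, an ETS site, was in none, against 4.48%, and an NF-kB motif was in none, against 1.84%. TGACGTCA, a cyclic AMP response element, was in 2.22% against 2.08%, CACGTG, an E-box, in 4.44% against 7.38%, and TATAAA in 3.33% against 8.57%. These are matches of letters and not sites shown to be bound.

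With 4OHT, 28 of the 68 guidance genes (41.2%) were called in vector+4OHT against vector-4OHT cells, where 32.6% of all genes were called. Of these, 11 were higher (background 14.9%) and 17 were lower (background 17.6%), with 40 not called. The changes of the whole list were centred on 0, with a median log2 fold change of 0.00 against -0.01 over all genes. At 2-fold or more, where 2.98% of all genes were called, 3 genes were higher (SEMA7A, SEMA6D and NTNG1; background 1.35%) and 5 were lower (NTN4, SEMA3D, PLXNC1, SEMA6A and SLIT2; background 1.62%).

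With the hairpin, 10 of the 68 (14.7%) were called in shARID1B+4OHT against vector+4OHT cells, beside 15.7% of all genes. There were 4 higher genes (SEMA3D, ROBO2, SEMA3A and NTN4; background 9.63%) and 6 lower genes (SEMA3C, SEMA7A, ROBO4, EPHA4, SEMA3F and PLXNA1; background 6.09%). The median was -0.02, which was also that of all genes. Past 2-fold, where 0.434% of all genes stood, were SEMA3D, higher (background 0.353%), and SEMA3C, lower (background 0.0814%). Of the 10 genes, 5 were semaphorins, a family that holds 19 of the 68. Between shARID1B+4OHT and vector-4OHT cells, 30 of the 68 (44.1%) were called, 11 higher (background 15.6%) and 19 lower (background 15.9%), where 31.5% of all genes were called. At 2-fold or more there were 8 (background 3.02%). SEMA6D, SEMA7A and NTNG1 were higher (background 1.58%), and NTN4, SEMA6A, PLXNC1, SLIT2 and SEMA3E lower (background 1.44%). The comparisons share arrays, so their counts are not independent of each other.

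**Figure D1:**
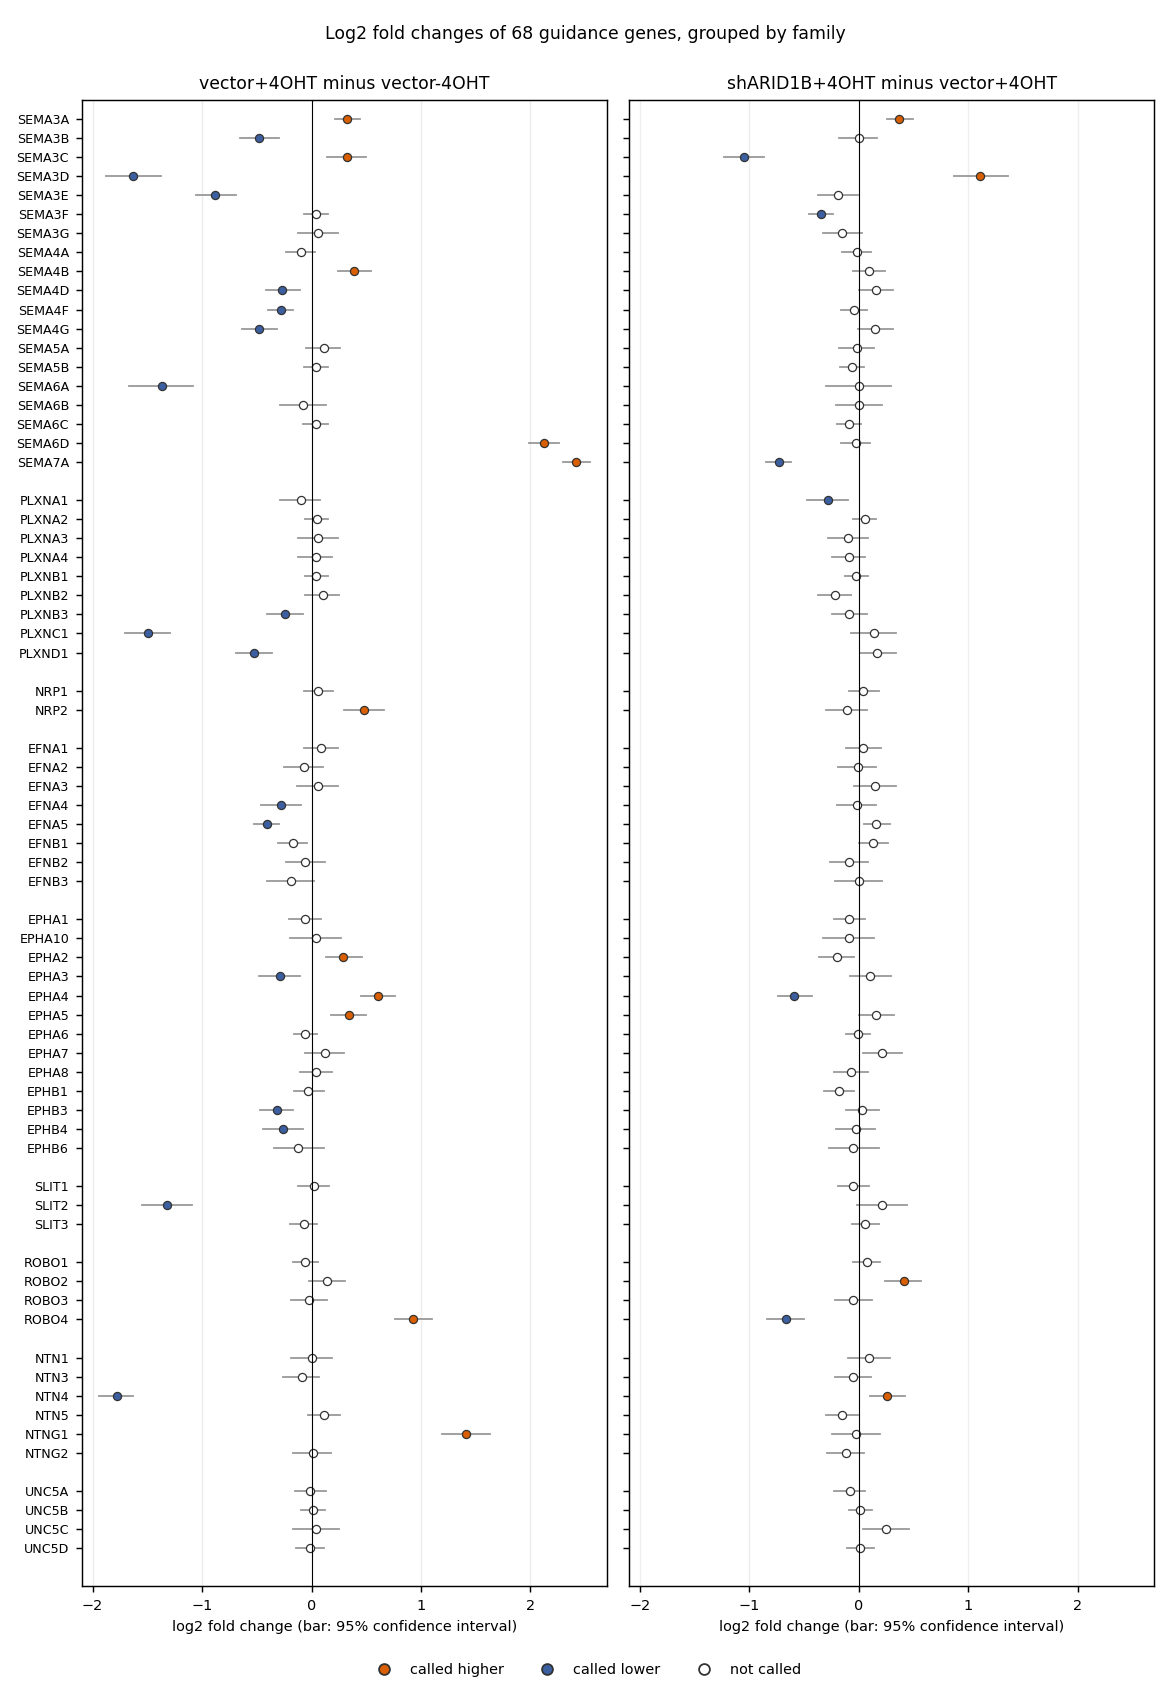
Log2 fold changes of the 68 guidance genes, with 95% confidence intervals as bars, in rows by family from semaphorins at the top to UNC5 receptors at the bottom. The left panel shows vector+4OHT minus vector-4OHT and the right panel shARID1B+4OHT minus vector+4OHT. SEMA7A at 2.42 and NTN4 at -1.78 mark the ends of the left panel, and SEMA3D at 1.11 and SEMA3C at -1.05 those of the right panel.

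The semaphorins held the highest number of calls, with 5 higher (background 14.9%) and 7 lower (background 17.6%) of 19 under 4OHT. In both directions together, 63.2% of the semaphorins were called, against 32.6% of all genes. SEMA7A, a semaphorin held on the membrane by a glycolipid anchor, had the highest change of all guidance genes. It read 11.17, 11.18 and 11.18 in shARID1B+4OHT cells, 11.87, 11.94 and 11.92 in vector+4OHT cells, and 9.52, 9.39 and 9.55 in vector-4OHT cells. The 3 groups did not overlap. SEMA7A was 5.35-fold higher with 4OHT (log2 fold change 2.42, SE 0.053, adjusted p = 1.68e-10). With the hairpin it was 0.601 times the level of vector+4OHT cells (-0.73, adjusted p = 1.29e-05), and it was still 3.22-fold above vector-4OHT cells (1.69, adjusted p = 2.64e-09).

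SEMA6D, a transmembrane semaphorin that binds plexin-A1, was 4.36-fold higher with 4OHT. Its arrays read 11.45, 11.45 and 11.43 in shARID1B+4OHT cells, 11.38, 11.54 and 11.50 in vector+4OHT cells, and 9.26, 9.34 and 9.44 in vector-4OHT cells. The log2 fold change under 4OHT was 2.12 (SE 0.061, adjusted p = 1.37e-09). The arrays of both 4OHT groups overlapped, and the hairpin's difference was -0.03, with a 95% interval of -0.16 to 0.10. SEMA7A and SEMA6D thus both rose more than 4-fold with 4OHT, and SEMA7A alone was called with the hairpin. The difference between the genes was not tested.

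SEMA6A, the transmembrane relative of SEMA6D that binds plexin-A2 and plexin-A4, went the other way. It read 7.58, 7.53 and 7.35 in shARID1B+4OHT cells, 7.30, 7.59 and 7.58 in vector+4OHT cells, and 8.55, 8.92 and 9.12 in vector-4OHT cells. It fell to 0.386 times the vector-4OHT level (-1.37, adjusted p = 1.52e-05), with no overlap. With the hairpin the difference was 0.00, and its interval ran from -0.30 to 0.29. SEMA6A was as low in shARID1B+4OHT as in vector+4OHT cells.

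Of class 3, the secreted semaphorins that repel axons through neuropilins and plexins, SEMA3A, SEMA3C, SEMA3D and SEMA3E lie near each other on chromosome 7, and their values differed. SEMA3E, SEMA3A and SEMA3D follow each other with no protein-coding gene between them, and SEMA3C lies 3 protein-coding genes away from SEMA3E. SEMA3D read 8.14, 8.17 and 8.13 in shARID1B+4OHT cells, 6.74, 7.18 and 7.18 in vector+4OHT cells, and 8.76, 8.50 and 8.73 in vector-4OHT cells. It fell to 0.323 times the vector-4OHT level with 4OHT (-1.63, adjusted p = 1.06e-06), and was 2.16-fold higher with the hairpin than with the vector (1.11, adjusted p = 9.96e-05). The shARID1B+4OHT level stayed below that of vector-4OHT cells (-0.52, adjusted p = 0.00434), so the groups stood in 3 separate bands.

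SEMA3A, the founding class 3 repellent, was higher in each step. It read 12.50, 12.48 and 12.51 in shARID1B+4OHT cells, 12.05, 12.16 and 12.17 in vector+4OHT cells, and 11.83, 11.75 and 11.82 in vector-4OHT cells. The log2 fold change was 0.32 with 4OHT (adjusted p = 0.000545) and 0.37 with the hairpin (adjusted p = 0.000741), which placed shARID1B+4OHT cells 1.62-fold above vector-4OHT cells. SEMA3A was the guidance gene called higher in both comparisons, and no guidance gene was called lower in both.

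SEMA3C, which signals through both neuropilins, had its largest difference between the 4OHT groups. It read 9.05, 9.22 and 9.28 in shARID1B+4OHT cells, 10.17, 10.16 and 10.36 in vector+4OHT cells, and 10.03, 9.82 and 9.88 in vector-4OHT cells. With the hairpin it fell to 0.482 times the vector+4OHT level (-1.05, adjusted p = 2.05e-05), and it was also below vector-4OHT cells (-0.73, adjusted p = 4.65e-05). The 4OHT change itself was 0.32 (adjusted p = 0.011).

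SEMA3E, the class 3 semaphorin that binds plexin-D1 without a neuropilin, was dim on all arrays. It read 5.55, 5.50 and 5.27 in shARID1B+4OHT cells, 5.61, 5.69 and 5.59 in vector+4OHT cells, and 6.61, 6.39 and 6.51 in vector-4OHT cells. Its log2 fold change with 4OHT was -0.88 (adjusted p = 1.11e-05), without overlap of the arrays. The hairpin's difference was -0.19 (adjusted p = 0.162).

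Of the remaining class 3 genes, SEMA3F, a ligand of neuropilin-2, was the one called with the hairpin and not with 4OHT. Its levels were 8.14, 8.19 and 8.20 in shARID1B+4OHT cells, 8.50, 8.56 and 8.50 in vector+4OHT cells, and 8.42, 8.51 and 8.53 in vector-4OHT cells. It was lower with the hairpin by a log2 fold change of -0.35 (adjusted p = 0.000986) and unresolved with 4OHT (0.04, adjusted p = 0.672). SEMA3B fell with 4OHT (-0.48, adjusted p = 0.000731) to a dim level, and SEMA3G was not called. Among the membrane-bound class 4 genes, SEMA4B rose (0.39, adjusted p = 0.000928), and SEMA4G (-0.48), SEMA4F (-0.28) and SEMA4D (-0.27, dim throughout) fell. The second probe set of SEMA4D gave -0.11 (adjusted p = 0.341), so its probe sets differed on the call. SEMA4A, SEMA5A, SEMA5B, SEMA6B and SEMA6C were called neither with 4OHT nor with the hairpin.

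**Figure D2:**
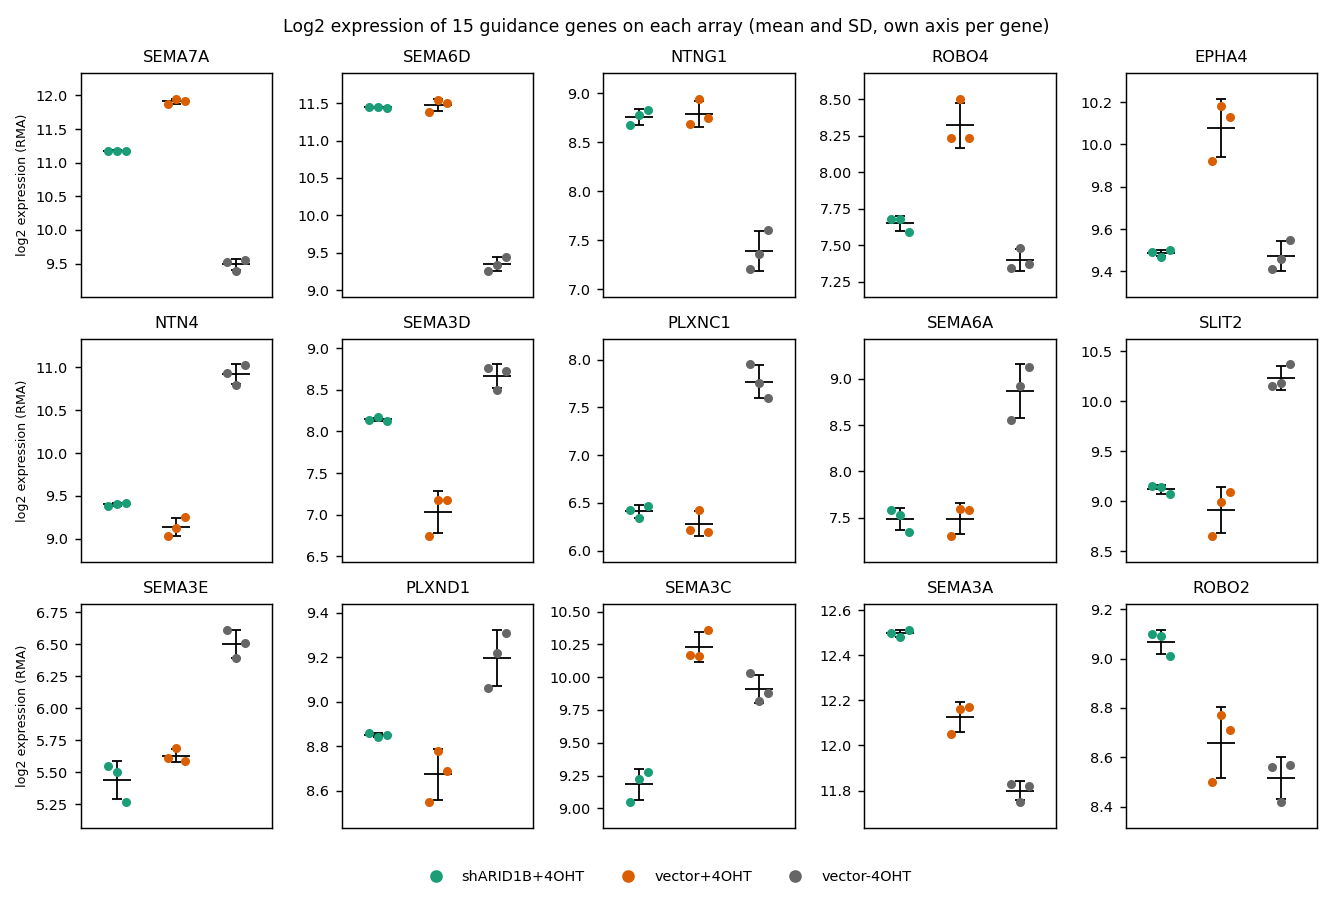
Log2 expression (RMA) of 15 guidance genes on each array, with the group mean as a horizontal mark and the SD as a bar (n = 3 per group), in the order shARID1B+4OHT, vector+4OHT and vector-4OHT. Each gene has its own vertical axis. SEMA7A, ROBO4, EPHA4 and SEMA3C are highest in vector+4OHT cells, SEMA3D and NTN4 lowest there, and SEMA3A stands highest in shARID1B+4OHT cells.

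Among the semaphorin receptors, 3 of 9 plexins were lower with 4OHT (background 17.6%) and none was higher (background 14.9%). In both directions together, 33.3% of the plexins were called, against 32.6% of all genes. PLXNC1, the plexin that binds SEMA7A, fell while its ligand rose. It read 6.43, 6.34 and 6.47 in shARID1B+4OHT cells, 6.22, 6.43 and 6.19 in vector+4OHT cells, and 7.95, 7.76 and 7.60 in vector-4OHT cells. The fall was to 0.355 times the vector-4OHT level (-1.49, adjusted p = 5.04e-07), and both 4OHT groups were dim, so its size there is uncertain. The hairpin's difference was 0.14 (adjusted p = 0.378), with overlapping arrays. ITGB1, the integrin beta subunit that SEMA7A also engages, stood at 12.28 ± 0.045 in shARID1B+4OHT, 12.24 ± 0.0042 in vector+4OHT and 12.20 ± 0.088 in vector-4OHT cells (SD, n = 3 each), with no call.

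PLXND1, the receptor of SEMA3E, was lower with 4OHT together with that ligand. It read 8.86, 8.84 and 8.85 in shARID1B+4OHT cells, 8.55, 8.78 and 8.69 in vector+4OHT cells, and 9.06, 9.22 and 9.31 in vector-4OHT cells. The log2 fold change was -0.53 (adjusted p = 0.000236) with 4OHT and 0.17 (adjusted p = 0.153) with the hairpin. PLXNB3 fell by 0.24 on the log2 scale with 4OHT (adjusted p = 0.025), a call lost without vector-4OHT replicate 2 (adjusted p = 0.0997) or vector+4OHT replicate 3 (adjusted p = 0.083). PLXNA1, a receptor of SEMA6D, was at 9.87, 9.84 and 9.74 in shARID1B+4OHT cells against 9.99, 10.26 and 10.06 in vector+4OHT cells. Its call with the hairpin (-0.28, adjusted p = 0.042) lay near the threshold. It was lost without any 1 of 6 arrays, the 3 of shARID1B+4OHT, vector+4OHT replicates 2 and 3, and vector-4OHT replicate 2 (adjusted p from 0.0562 to 0.149). PLXNA2, PLXNA3, PLXNA4, PLXNB1 and PLXNB2 were not called in either of these comparisons. PLXNB2 missed the threshold with the hairpin (-0.22, adjusted p = 0.0546), and its arrays did not overlap there. It was called without vector-4OHT replicate 3 (adjusted p = 0.0332) and in a trended and robust fit (adjusted p = 0.0241).

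The neuropilins, coreceptors of class 3 semaphorins, had 1 call between them. NRP2 was 1.39-fold higher with 4OHT (8.98 ± 0.15 in vector+4OHT against 8.51 ± 0.12 in vector-4OHT cells, SD, n = 3 each, adjusted p = 0.000944). Its second probe set gave a log2 fold change of 0.45 (adjusted p = 0.00052). NRP1 had means of 11.37 in vector+4OHT and 11.30 in vector-4OHT cells, and its difference lay between -0.07 and 0.20 (95% interval). In the hairpin comparison NRP2 differed by -0.11 (adjusted p = 0.402) and NRP1 by 0.04 (adjusted p = 0.685).

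**Figure D3:**
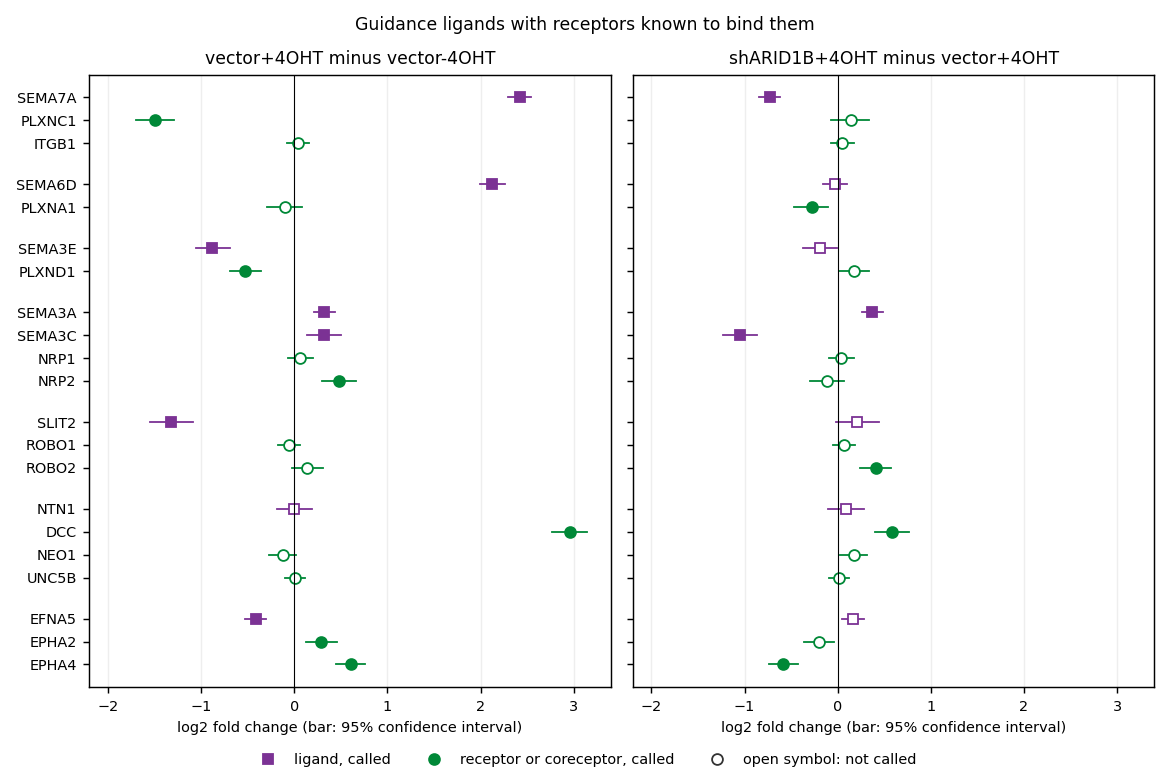
Log2 fold changes of guidance ligands (squares) and of receptors or coreceptors known to bind them (circles), in blocks of ligand and receptor, with 95% confidence intervals. Filled symbols were called, the left panel shows vector+4OHT minus vector-4OHT, and the right panel shows shARID1B+4OHT minus vector+4OHT. SEMA7A at 2.42 stands opposite PLXNC1 at -1.49, and of the netrin block DCC at 2.96 was called while NTN1 was not.

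Of the ephrins, 2 of 8 were lower with 4OHT (background 17.6%) and none was higher (background 14.9%). That is 25% of the ephrins called, against 32.6% of all genes. EFNA5, a glycolipid-anchored ephrin that binds EphA receptors, read 9.18, 9.17 and 9.13 in shARID1B+4OHT cells, 8.93, 9.03 and 9.04 in vector+4OHT cells, and 9.37, 9.47 and 9.39 in vector-4OHT cells. It fell to 0.752 times the vector-4OHT level (adjusted p = 0.000105). The arrays of the 3 groups did not overlap, but the hairpin's difference of 0.16 was not called (adjusted p = 0.0624). EFNA4 was lower by a log2 fold change of -0.28 (adjusted p = 0.0196), a call lost without vector-4OHT replicate 2 (adjusted p = 0.0823) or vector+4OHT replicate 1 (adjusted p = 0.0547). EFNA3 and EFNA1, which follow it on chromosome 1 with no protein-coding gene between, were dim and not called. EFNB1 missed the threshold with 4OHT (-0.17, adjusted p = 0.0502), and EFNA2, EFNB2 and EFNB3 were not called.

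Of the 13 Eph receptors, 3 were higher (background 14.9%) and 3 lower (background 17.6%) with 4OHT, or 46.2% called against 32.6% of all genes. EPHA4, a receptor that binds ephrins of both classes, had the largest rise. It read 9.49, 9.47 and 9.50 in shARID1B+4OHT cells, 9.92, 10.18 and 10.13 in vector+4OHT cells, and 9.41, 9.46 and 9.55 in vector-4OHT cells. It was 1.52-fold higher with 4OHT (0.61, adjusted p = 5.51e-05) and 0.665 times the vector+4OHT level with the hairpin (-0.59, adjusted p = 0.000296). The shARID1B+4OHT arrays lay within the range of the vector-4OHT arrays, and their difference was 0.02, with an interval of -0.14 to 0.17.

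EPHA2, the EphA receptor most often studied in carcinomas, was higher with 4OHT by 0.29 (adjusted p = 0.00936) and differed by -0.20 with the hairpin (adjusted p = 0.102). Its arrays read 9.69, 9.66 and 9.65 in shARID1B+4OHT cells, 9.72, 9.95 and 9.92 in vector+4OHT cells, and 9.47, 9.54 and 9.69 in vector-4OHT cells. Without vector+4OHT replicate 1, the lowest array of its group, the hairpin's difference was called (-0.27, adjusted p = 0.0237). EPHB4, the receptor of ephrin-B2, fell with 4OHT (-0.26, adjusted p = 0.0337), and so did EPHB3 (-0.32, adjusted p = 0.0035). The EPHB4 call was lost without vector-4OHT replicate 2 (adjusted p = 0.0537) or 3 (adjusted p = 0.125), and without vector+4OHT replicate 1 (adjusted p = 0.0949) or 3 (adjusted p = 0.0923). EPHA5 (0.34) and EPHA3 (-0.29) were called while dim in all 3 groups. The arrays of EPHA3 overlapped, and its call was lost without vector+4OHT replicate 2 or 3, or vector-4OHT replicate 1 or 2 (adjusted p from 0.0528 to 0.0716). EPHA7 (0.33, adjusted p = 0.00827) and EPHB1 (-0.21, adjusted p = 0.0263), both dim, were called between shARID1B+4OHT and vector-4OHT cells alone. The EPHB1 call was lost without vector-4OHT replicate 3 (adjusted p = 0.0936) or shARID1B+4OHT replicate 2 (adjusted p = 0.113). EPHA1, EPHA6, EPHA8, EPHA10 and EPHB6 were called in none of the 3 comparisons.

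SLIT2, the secreted ligand of the ROBO receptors, was the one SLIT above the dim level. It read 9.15, 9.14 and 9.07 in shARID1B+4OHT cells, 8.65, 8.99 and 9.09 in vector+4OHT cells, and 10.15, 10.18 and 10.37 in vector-4OHT cells. It fell to 0.4 times the vector-4OHT level with 4OHT (-1.32, adjusted p = 2.79e-06). With the hairpin the difference was 0.21, with an interval of -0.02 to 0.44. SLIT1 and SLIT3 were dim and not called.

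SLIT2 and SLIT3 each contain a hairpin of miR-218, a microRNA that has ROBO1 among its known targets, at chr4:20528275-20528384 on the plus strand and at chr5:168768146-168768255 on the minus strand (GRCh38.p14). Both give the same mature RNA, shown here (RefSeq) with its seed, bases 2 to 8, in capitals.
hsa-miR-218-5p: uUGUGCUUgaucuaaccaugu
Probe sets for these hairpins exist on the array, and were looked up after the values of SLIT2 had been seen. MIR218-1, inside SLIT2, averaged 4.77 in vector+4OHT against 4.95 in vector-4OHT cells (adjusted p = 0.103), and MIR218-2, inside SLIT3, averaged 5.63 in vector+4OHT against 5.61 in vector-4OHT cells (adjusted p = 0.903). Both were dim, and mature microRNAs were not measured.

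The ROBO receptors differed in which comparison moved them. ROBO4, the family member best known from endothelial cells, read 7.68, 7.68 and 7.59 in shARID1B+4OHT cells, 8.23, 8.50 and 8.23 in vector+4OHT cells, and 7.34, 7.48 and 7.37 in vector-4OHT cells. It was 1.9-fold higher with 4OHT (0.93, adjusted p = 4.8e-06) and 0.628 times the vector+4OHT level with the hairpin (-0.67, adjusted p = 0.000255). The shARID1B+4OHT arrays stood above those of vector-4OHT cells by 0.26 (adjusted p = 0.0276). That call was lost without any 1 of 4 arrays (adjusted p from 0.0808 to 0.0898), vector-4OHT replicates 1 and 3 and shARID1B+4OHT replicates 1 and 2. ROBO3, its neighbour on chromosome 11, was not called.

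Of the 10 endothelial markers, 8 were dim in all groups, among them CDH5, VWF, KDR and PECAM1. The list averaged 5.80 to 5.86 in shARID1B+4OHT, 5.76 to 5.88 in vector+4OHT and 5.79 to 5.85 in vector-4OHT arrays, which overlap. PECAM1 was called with ROBO4 in both comparisons, at means of 6.00 in shARID1B+4OHT, 6.28 in vector+4OHT and 5.70 in vector-4OHT cells. TEK was called in the opposite directions to ROBO4, at means of 8.05 in shARID1B+4OHT, 7.60 in vector+4OHT and 7.90 in vector-4OHT cells.

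ROBO2, a neuronal SLIT receptor next to ROBO1 on chromosome 3, was changed by the hairpin. It read 9.10, 9.09 and 9.01 in shARID1B+4OHT cells, 8.50, 8.77 and 8.71 in vector+4OHT cells, and 8.56, 8.42 and 8.57 in vector-4OHT cells. It was 1.33-fold higher with the hairpin (0.41, adjusted p = 0.00409). The difference with 4OHT was 0.14 (adjusted p = 0.183) with overlapping arrays. Without vector+4OHT replicate 1 that difference was called (0.22, adjusted p = 0.02). ROBO1, the widely expressed family member, had means of 10.45 in vector+4OHT and 10.50 in vector-4OHT cells, and its difference lay between -0.17 and 0.06 (95% interval).

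Among the netrins, NTN4, a netrin of basement membranes that binds laminin, had the largest fall of all guidance genes. It read 9.38, 9.40 and 9.42 in shARID1B+4OHT cells, 9.03, 9.13 and 9.25 in vector+4OHT cells, and 10.93, 10.80 and 11.03 in vector-4OHT cells. With 4OHT it fell to 0.291 times the vector-4OHT level (-1.78, adjusted p = 1.9e-08). The shARID1B+4OHT arrays were above those of vector+4OHT by 0.26 (adjusted p = 0.0304). That call was lost without any 1 of 5 arrays, vector+4OHT replicates 1 and 2 and all 3 of shARID1B+4OHT (adjusted p from 0.0704 to 0.0997). shARID1B+4OHT cells still had 0.348 times the NTN4 level of vector-4OHT cells (adjusted p = 4.95e-08).

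NTNG1, a glycolipid-anchored netrin-G that binds the synaptic adhesion protein NGL-1 and not DCC, rose with 4OHT. It read 8.67, 8.78 and 8.83 in shARID1B+4OHT cells, 8.68, 8.94 and 8.75 in vector+4OHT cells, and 7.20, 7.36 and 7.60 in vector-4OHT cells. It was 2.65-fold higher (1.41, adjusted p = 1.38e-06). The hairpin's difference was -0.03, with an interval of -0.25 to 0.19. NTN1, the founding netrin, averaged 8.30 in vector+4OHT and 8.30 in vector-4OHT cells and was not called, nor were NTN3, NTN5 and NTNG2. None of the UNC5 receptors, which carry the repulsive netrin response, was called in either comparison. UNC5C, dim, was called between shARID1B+4OHT and vector-4OHT cells (0.29, adjusted p = 0.0408). Leaving out any 1 of 5 arrays ended that call (adjusted p from 0.0531 to 0.153), vector-4OHT replicates 1 and 3, vector+4OHT replicates 2 and 3, and shARID1B+4OHT replicate 2.

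The other genes of these pathways were taken from a list of 81 receptors, coreceptors and effectors, of which 77 were measured. With 4OHT, 12 were higher (background 14.9%) and 24 lower (background 17.6%), with a median log2 fold change of -0.06 against -0.01 over all genes. With the hairpin, 10 were higher (background 9.63%) and 12 lower (background 6.09%), with a median of 0.01 against -0.02. Between shARID1B+4OHT and vector-4OHT cells, 16 were higher (background 15.6%) and 22 lower (background 15.9%), with a median of -0.05 against -0.03. The largest change was that of DCC, the receptor that mediates attraction by netrin-1. DCC read 11.23, 11.31 and 11.23 in shARID1B+4OHT cells, 10.47, 10.83 and 10.74 in vector+4OHT cells, and 7.71, 7.78 and 7.68 in vector-4OHT cells. It was 7.76-fold higher with 4OHT (2.96, SE 0.082, adjusted p = 1.07e-09) and a further 1.49-fold higher with the hairpin (0.58, adjusted p = 0.000922). Neogenin (NEO1), the relative of DCC, differed by -0.12 (adjusted p = 0.201) with 4OHT. DCC thus rose with 4OHT, and NTN1 was not called.

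FLRT3 and FLRT2 are adhesion proteins of 1 family that bind UNC5 receptors, and they moved apart. FLRT3 averaged 10.98 in shARID1B+4OHT, 10.51 in vector+4OHT and 9.21 in vector-4OHT cells, higher in each step (1.30, adjusted p = 5.54e-08, and 0.48, adjusted p = 0.000419). FLRT2 averaged 8.68 in shARID1B+4OHT, 7.90 in vector+4OHT and 8.89 in vector-4OHT cells. It fell with 4OHT (-0.99, adjusted p = 4.92e-06) and was higher with the hairpin (0.78, adjusted p = 0.00015). CHL1, an adhesion protein that acts with neuropilin-1 in the response to SEMA3A, changed with the hairpin. It read 6.74, 7.05 and 7.21 in shARID1B+4OHT cells, 5.47, 5.53 and 5.63 in vector+4OHT cells, and 5.74, 5.54 and 5.52 in vector-4OHT cells. The log2 fold change with the hairpin was 1.45 (adjusted p = 1.36e-05), and both vector groups were dim.

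Among the intracellular mediators of semaphorin signalling, some were called and others, such as DPYSL5, MICAL1, RND1, RND3, RRAS, FYN and GSK3B, were called neither with 4OHT nor with the hairpin. DPYSL2 (CRMP2), which links SEMA3A to microtubules, averaged 11.10 in shARID1B+4OHT, 10.59 in vector+4OHT and 11.55 in vector-4OHT cells. It was lower with 4OHT (-0.95, adjusted p = 2.99e-07) and higher with the hairpin (0.51, adjusted p = 0.000158). Its relative DPYSL3 was lower with 4OHT (-1.19, adjusted p = 1.92e-07) and lower again with the hairpin (-0.23, adjusted p = 0.034). MICAL2, an actin-oxidising enzyme of the family that acts below plexins, averaged 10.76 in shARID1B+4OHT, 11.23 in vector+4OHT and 10.29 in vector-4OHT cells, and was called in both comparisons (0.94, adjusted p = 3.42e-07, and -0.48, adjusted p = 0.000271).

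MET, the hepatocyte growth factor receptor that associates with B-class plexins, fell with 4OHT (-0.87, adjusted p = 6.27e-06) and was lower again with the hairpin (-0.46, adjusted p = 0.00235). RRAS2, a small GTPase of the R-Ras group on which plexins act, fell with 4OHT (-0.85, adjusted p = 1.01e-06) and differed by 0.01 with the hairpin. PLXDC1, a membrane protein named for a plexin-like domain, fell with 4OHT (-0.87, adjusted p = 1.69e-07) to a dim level. ABL2, a tyrosine kinase of the cytoskeleton, averaged 9.05 in shARID1B+4OHT, 9.62 in vector+4OHT and 9.60 in vector-4OHT cells. It was lower with the hairpin (-0.57, adjusted p = 0.000206), as was RGMB, a ligand of neogenin (-0.46, adjusted p = 0.000246). Neither ABL2 nor RGMB was called with 4OHT.

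**Figure D4:**
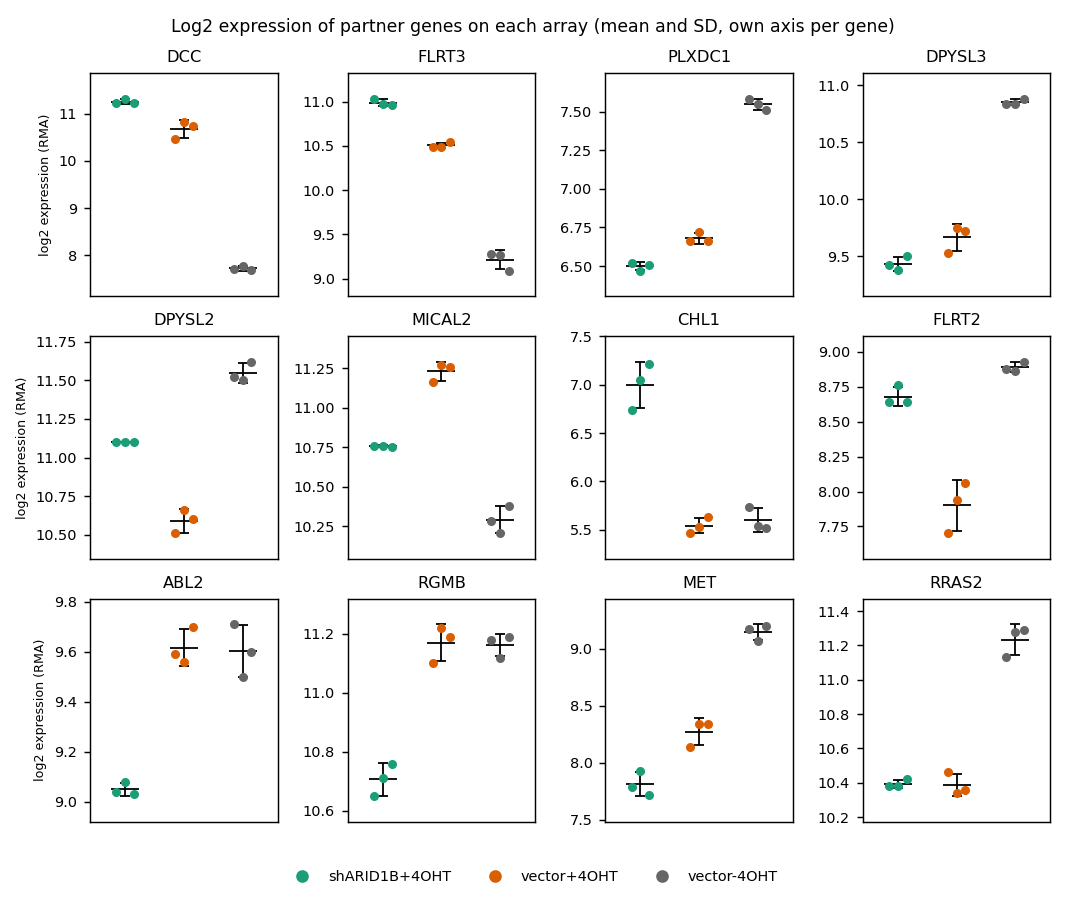
Log2 expression (RMA) of 12 other guidance pathway genes on each array, with the mean as a horizontal mark and the SD as a bar (n = 3 per group), in the order shARID1B+4OHT, vector+4OHT and vector-4OHT. Each gene has its own vertical axis. DCC and FLRT3 stand highest in shARID1B+4OHT cells, FLRT2 and DPYSL2 lowest in vector+4OHT cells, and CHL1 is higher in shARID1B+4OHT cells than in both vector groups.

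Because many guidance genes are known from neurons, 15 neuronal and glial markers were read beside them, of which 13 were measured. Over all genes, 14.9% were called higher and 17.6% lower with 4OHT, and 9.63% higher and 6.09% lower with the hairpin. With 4OHT, 3 were higher (NEFM 1.18, GAP43 1.02 and NEFL 0.62) and 2 were lower (SNAP25 -0.57 and S100B -0.28). With the hairpin, NEFM (1.07, adjusted p = 2.05e-05) and SNAP25 (0.47, adjusted p = 0.003) were higher. The list averaged 6.80 to 6.88 in shARID1B+4OHT, 6.67 to 6.75 in vector+4OHT and 6.55 to 6.59 in vector-4OHT arrays, which do not overlap. Its median log2 fold change was 0.00 with 4OHT, against -0.01 over all genes, and 0.04 with the hairpin, against -0.02. Between shARID1B+4OHT and vector-4OHT cells the median was -0.02, against -0.03. MAP2, SYP, STMN2, S100B and MBP were dim in all groups. NEFM, GAP43 and NEFL were higher in the same comparison as DCC and NTNG1. SNAP25 and S100B were lower there, and the other markers measured were not called. The part of these markers in the DCC and NTNG1 results was not tested. Of the 7 epithelial markers measured, KRT19 (-1.10) and KRT8 (-0.25) were lower with 4OHT, and KRT19 (0.86), CLDN4 and CLDN7 were higher with the hairpin. That list averaged 7.17 to 7.25 in shARID1B+4OHT, 6.96 to 7.07 in vector+4OHT and 7.18 to 7.21 in vector-4OHT arrays, with EPCAM and CDH1 dim in all groups. Of the 8 leukocyte markers measured, 7 were dim in all groups, and CD68 alone was called, higher in both comparisons. The leukocyte list averaged 6.34 to 6.36 in shARID1B+4OHT, 6.27 to 6.42 in vector+4OHT and 6.32 to 6.37 in vector-4OHT arrays. Of the 10 fibroblast markers, 9 were lower with 4OHT, and the hairpin gave 2 higher and 2 lower.

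Of the 28 guidance genes called with 4OHT, 4 were higher with 4OHT and lower with the hairpin, 2 were lower and then higher, 1 was higher in both, and 6 higher genes (among them SEMA6D and NTNG1) and 15 lower genes (among them SEMA6A, SLIT2 and PLXNC1) were not called with the hairpin. A further 3 were called with the hairpin alone (ROBO2, SEMA3F and PLXNA1), and 37 were called in neither. The shares of all genes with each pair of calls are not given here, so these counts have no background beside them. Both comparisons use the vector+4OHT arrays, so a chance high or low value there moves them in opposite directions. A change could be missed in a dim gene. With only genes above 6.75 on at least 3 arrays in the fit, EFNB1 was also called with 4OHT (adjusted p = 0.0315). With the hairpin, that fit also called EFNA5 (adjusted p = 0.0379) and PLXNB2 (adjusted p = 0.0324). Whether low levels hid changes in the dim genes themselves was not tested. Of the 68 guidance genes, 23 were dim in all 3 groups, of which 4 were called with 4OHT (EPHA3, EPHA5, SEMA3E and SEMA4D) and none with the hairpin. Among the other 45, 24 were called with 4OHT and all 10 of the hairpin's calls were made. Over all genes, dim or not, 32.6% were called with 4OHT and 15.7% with the hairpin. The shares among dim genes alone are not given here, so this split cannot be read as particular to guidance genes.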

How the data were processed

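The authors deposited 1 table of log2 values for 33297 probe sets on 9 arrays. The submitters' processing notes name RMA, oligo and limma, and versions and genome build are not given in the sources used here. The labels' extraction text names an Illumina library kit, while their labelling text and the probe set numbers point to Affymetrix arrays. The platform annotation gave 19460 probe sets exactly 1 gene symbol, 1754 several and 12083 none. For the 769 genes with several such probe sets the one with the highest mean was kept, which left 18417 genes. In R 4.3.3, limma 3.58.1 (lmFit and eBayes) was run on the 9 arrays with no covariate beside group, in two-sided tests, on 6 residual degrees of freedom (10.45 after eBayes). The small number of arrays limits the precision, and permuting 3 arrays against 3 exactly could not give a p under 0.1. The code was tested on simulated data. For 721 genes, among them ROBO3 and SEMA5B, the 3 arrays of a group held 1 value.

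The guidance genes, the lists of pathway genes and markers, the motifs and the rule for named genes were chosen with earlier results of these data known. Guidance genes called with a log2 fold change of at least 0.5 in size in any comparison were given per array, as were ARID1B and the genes of the pathway list with the smallest p-values, up to 6 per comparison. EFNA5, EPHA2 and SEMA3F were given per array after their values had been seen. Other settings tried were a block for the replicate number, the arrays compared alone, no dim genes, averaged probe sets, array medians subtracted, a trended and robust fit, the methods' t-test, a 2-fold limit and each array left out.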

Additional observations from a re-analysis of the deposited data

How the results depend on the processing

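Values were recomputed for the 15 guidance genes called with a log2 fold change of at least 0.5 in size in any comparison. Of the recomputed values, 704 kept their direction and their side of the threshold, 12 lost the call, 1 gained it and 0 changed sign. With a 2-fold limit as well, 8 guidance genes were called with 4OHT, 2 with the hairpin and 8 between shARID1B+4OHT and vector-4OHT cells. The methods' t-test with Benjamini-Hochberg adjustment called 3738 genes with 4OHT, where limma called 5996, and 1446 with the hairpin, where limma called 2895. Of guidance genes higher with the hairpin it kept 2 of 4 (SEMA3A and SEMA3D). With 4OHT it lost EFNA4, EPHA2, EPHA3, EPHB3, EPHB4, NRP2, PLXNB3 and SEMA3C (adjusted p from 0.0579 to 0.178) and gained PLXNA2. With the hairpin it lost NTN4, PLXNA1 and ROBO2 (adjusted p from 0.0789 to 0.164). Between shARID1B+4OHT and vector-4OHT cells it lost EPHA7, EPHB1, EPHB3, EPHB4, SEMA4G and UNC5C (adjusted p from 0.0503 to 0.22) and gained EPHA1. At an unadjusted p under 0.05 it gave 12 higher and 13 lower guidance genes with 4OHT and 5 higher and 7 lower with the hairpin. The cause was not tested.

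Subtracting each array's median put the median guidance change at 0.00 with the hairpin and at -0.01 between shARID1B+4OHT and vector-4OHT cells. In the second of these it moved the calls over all genes to 3452 higher and 2087 lower, against 2867 and 2933. With 4OHT the calls over all genes became 3026 higher and 2658 lower, against 2747 and 3249, and EFNA4 and EPHB4 were no longer called. With the hairpin they became 1799 higher and 760 lower, against 1773 and 1122. PLXNA1 was then no longer called with the hairpin (adjusted p = 0.0847). Leaving out each array in turn gave 11 to 12 higher and 13 to 17 lower guidance genes with 4OHT, and 3 to 4 higher and 5 to 7 lower with the hairpin. Between shARID1B+4OHT and vector-4OHT cells it gave 9 to 11 higher and 17 to 20 lower, with a median of -0.10 to -0.06. The median ran from -0.02 to 0.02 with 4OHT and from -0.04 to -0.01 with the hairpin. Over all genes 5288 to 5969 were called with 4OHT, 1801 (without shARID1B+4OHT replicate 2) to 2817 with the hairpin, and 4639 to 6293 between shARID1B+4OHT and vector-4OHT cells. Of the guidance calls, 24 of 28 with 4OHT, 8 of 10 with the hairpin and 25 of 30 between shARID1B+4OHT and vector-4OHT cells were kept whichever array was left out.

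No pairing of the arrays by replicate number was seen, though 3 arrays per group are too few to exclude it. Deviations from group means correlated at -0.26 to 0.32 between arrays of the same number and at -0.33 to 0.34 between arrays of different numbers. Of the 9 arrays, 2 correlated best with their own number. With the replicate number as a block, 11 guidance genes were higher and 17 lower with 4OHT, 4 higher and 5 lower with the hairpin, where PLXNA1 was lost (adjusted p = 0.0617), and 11 higher and 19 lower between shARID1B+4OHT and vector-4OHT cells. Over all genes the block gave 5658, 2498 and 5437 calls in the same order. Of the 68 guidance genes, 23 had means under 6.75 in all 3 groups at once, where a change could be missed.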
